A study of Arabidopsis thaliana with 12 samples.

Results

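The comparison described here set Col-0 red seeds against Col-0 dark seeds of Arabidopsis thaliana, across every measured probe set, 12 h after the last light. Both groups were imbibed seeds of the Col-0 wild type, which carries no introduced mutation. Col-0 red seeds received a far-red pulse of 3.2 µmol m-2 s-1 and then a red pulse of 13 µmol m-2 s-1, each for 5 min, while Col-0 dark seeds received only the far-red pulse, so the label dark refers to seeds whose last light was far-red. Both were then kept in darkness on aqueous medium for 12 h, and total RNA was hybridised to Affymetrix arrays. The members were the 3 arrays titled Col-0 red light and the 3 titled Col-0 dark, 6 of the 12 arrays of the series, and they were paired by their biological replicate number. The other 6 arrays came from pil5 mutant seeds after the same treatments and served only to estimate the spread. They include pil5 red 3, which stood furthest apart: it correlated with pil5 red 1 and 2 at r = 0.968 and 0.975 across probe sets, while those correlated at 0.997, and without it the count of calls given below was 7785 in place of 6009. Number 3 was also the least alike in the Col-0 groups. Col-0 dark 3 correlated with dark 1 and 2 at 0.988 and 0.990, and those at 0.997. Col-0 red 3 correlated with red 1 and 2 at 0.987 and 0.989, and those at 0.997. The labels do not give the age or storage of the seeds, or whether replicates were separate seed harvests, so p-values measure the spread between these samples.

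Phytochromes are red and far-red photoreceptors that red light turns active and far-red light turns back. In imbibed seeds, active phytochrome removes PIL5 (also called PIF1), a bHLH transcription factor that holds back germination. Germination depends on the balance of 2 hormones: gibberellin (GA) acts through GID1 receptors and the destruction of DELLA repressors and promotes it, and abscisic acid (ABA) keeps the maturation programme on and delays it. Later, embryo cells expand by loosening their walls, and storage protein, oil and starch are broken down. RNA came from whole seeds, so fewer cells of a type and less RNA per cell cannot be told apart. The tissue named in the labels could not be checked against seed markers, since 0 of 12 embryo reserve and late maturation markers and 0 of 1 endosperm marker were tied to a probe set. Of the markers of other tissues, 1 of 5 for green leaf was measured (RCA, mean 7.26 in red seeds and 7.73 in dark seeds), 1 of 3 for pollen (AT59, 3.79 and 3.88) and 1 of 2 for root hair (EXPA7, 4.56 and 4.43), all values on the log2 scale of the deposited table.

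Red light was followed by broad change. A probe set was called when its Benjamini-Hochberg adjusted p in limma, with the replicate number as a block, was under 0.05. Of 22746 probe sets 6009 were called (26.4%), 3040 higher (13.4%) and 2969 lower (13.1%) in red seeds, and 1101 of them changed at least 2-fold (4.84%). With no block the count was 3443, all of them among the 6009. Counted by gene, with the brightest probe set for each, 3279 of 13355 genes were called (24.6%), 1631 higher (12.2%) and 1648 lower (12.3%). Of these genes 253 rose and 303 fell at least 2-fold (4.16% of all genes in either direction). The 3 red and 3 dark arrays did not overlap in 33.3% of probe sets and 31.9% of genes, and in 5014 of the called probe sets (83.4%). The share called differed with signal: 44.0% of genes above the median level of 5.73 were called (21.4% higher and 22.7% lower), against 5.06% of those at or below it. The group counts below are to be read against these shares, as descriptions with no test of the group itself. A gene counts as measured only where the supplied annotation tied a probe set to it alone. That annotation gave no gene for 8730 of the 22746 probe sets, so a list can lack genes that the array covers.

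**Figure D1:**
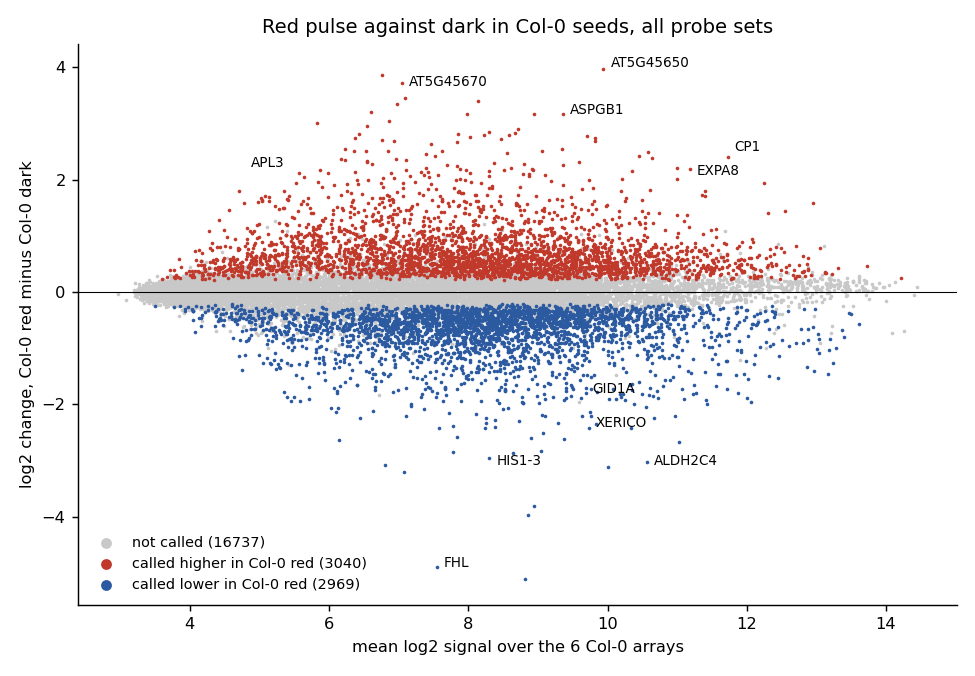
Log2 change (Col-0 red minus Col-0 dark, vertical) against mean log2 signal over the 6 Col-0 arrays (horizontal) for each of 22746 probe sets, with the 3040 called higher in red seeds and the 2969 called lower in colour. Calls are few at low signal, FHL lies at -4.90 and AT5G45650 at 3.96.

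The largest fall of a named gene was that of FHL (AT5G02200), a relative of FHY1 that carries phytochrome A into the nucleus. It read 5.21, 5.04 and 5.06 in red seeds of numbers 1, 2 and 3, against 10.03, 9.88 and 10.10 in dark seeds. The groups lay far apart, with a log2 change of -4.90 (SE 0.16, adjusted p = 7.9e-07), or 29.8-fold lower after red. The other measured gene of light signalling, the bZIP factor HYH, had 0.50 (SE 0.20, adjusted p = 0.093) at low signal. The clock gene GI had -0.41 (SE 0.35, adjusted p = 0.48).

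Genes of GA perception and response moved mostly downward. Of 7 measured members 5 fell and 1 rose, with a median log2 change of -0.44, and 3 fell and 1 rose with no block. The receptor gene GID1A read 8.76, 8.87 and 8.75 in red seeds, against 10.47, 10.86 and 10.41 in dark seeds, and fell by 1.79 (SE 0.11, adjusted p = 3.7e-05). GID1C fell by 1.11 (SE 0.10), while the third receptor gene, GID1B, had 0.15 (SE 0.14, adjusted p = 0.51) at means below the median level. The F-box gene SLY1, whose product marks DELLA proteins for destruction, fell by 0.44 (SE 0.07, adjusted p = 0.0022, and 0.26 with no block), and its close relative SLY2 rose by 0.58 (SE 0.13). SPY and SEC, which attach sugars to DELLA proteins, fell by 0.44 (SE 0.09; adjusted p = 0.058 with no block) and 0.34 (SE 0.10). The call of SLY2 ended without dark 1 (adjusted p = 0.054) and that of SEC without any of dark 1, dark 2, red 1, red 2 or red 3 (adjusted p up to 0.15).

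Of the listed ABA genes, only 1 of synthesis and breakdown and 1 of signalling could be tied to a probe set, and both fell. The first, XERICO, a RING protein that promotes ABA accumulation, read 8.35, 8.55 and 8.65 in red seeds, against 10.76, 11.15 and 10.91 in dark seeds, a change of -2.43 (SE 0.32, adjusted p = 0.00084). The second, EEL, a bZIP factor of late embryo genes, fell by 1.72 (SE 0.52, adjusted p = 0.036). Of the 2 measured regulators of dormancy and germination, the MADS-box gene AGL67 fell by 1.88 (SE 0.46, adjusted p = 0.014). Their groups did not overlap, but EEL lost its call without any of dark 1, dark 2, red 1, red 2, red 3 or pil5 dark 2 (adjusted p up to 0.16), and AGL67 without dark 1, dark 2, red 1 or red 3 (up to 0.077). The other, SPT, a bHLH factor, went the opposite way: it read 8.38, 8.21 and 7.39 in red seeds, against 7.22, 6.66 and 6.87 in dark seeds, and rose by 1.08 (SE 0.16, adjusted p = 0.0014).

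Among other hormones, EIN3, a master transcription factor of the ethylene response, fell by 0.74 (SE 0.12, adjusted p = 0.0025) at high signal, with means of 11.2 in red seeds and 12.0 in dark seeds. RTE1, which acts on an ethylene receptor, fell by 0.42 (SE 0.10), a call that ended with no block (adjusted p = 0.059) and without dark 1, dark 2 or red 1 (up to 0.076). Of 17 auxin genes 1 passed: IAA30, an Aux/IAA gene, read 4.84, 4.63 and 4.35 in red seeds, against 6.59, 6.88 and 6.18 in dark seeds, and fell by 1.94 (SE 0.11, adjusted p = 2.4e-05). Only 4 of those 17 genes lay above the median level. The highest change was that of GH3.1, named after its value was seen. It read 7.39, 7.30 and 7.46 in red seeds, against 6.31, 6.04 and 6.46 in dark seeds. Its change of 1.11 had an SE of 0.73, estimated over all 12 arrays, and was not called (adjusted p = 0.34). The brassinosteroid-responsive gene BRH1 rose by 0.64 (SE 0.16), with adjusted p = 0.058 with no block and up to 0.08 without dark 1, dark 2, red 2 or red 3. Of 5 jasmonate and salicylate genes, limma called 0, with 2 at an unadjusted p under 0.05. Over all genes with a locus, 33.7% had an unadjusted p under 0.05 in limma.

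**Figure D2:**
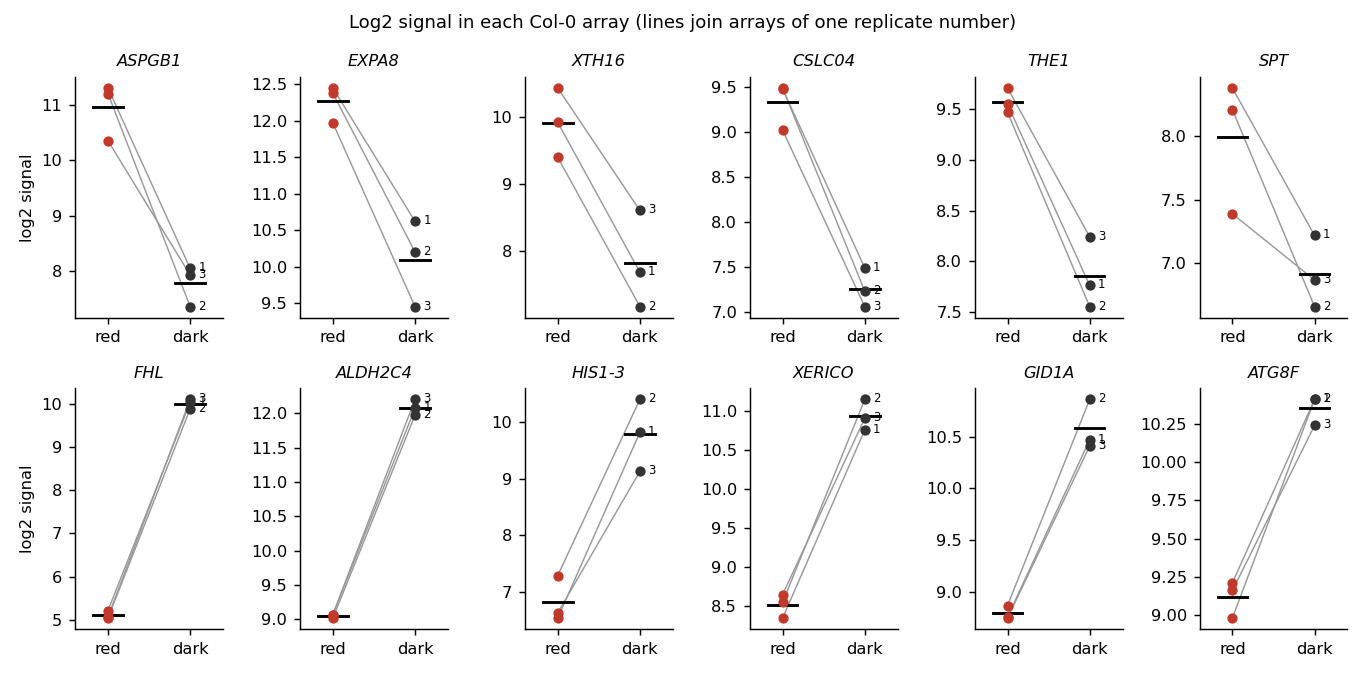
Log2 signal of 12 genes in each Col-0 red array (left, red points) and each Col-0 dark array (right, black points), with thin lines joining arrays of the same replicate number and bars at the means. In each panel the 3 red arrays lie on one side of the 3 dark arrays, and each panel has its own vertical scale that does not start at 0.

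Late embryogenesis abundant (LEA) proteins shield cells during drying, and their transcripts are stored in dry seed. All 7 measured LEA genes were above the median level, 4 fell and 2 rose, and the median change was -0.88. The gene named LEA (AT2G21490) read 11.37, 11.77 and 11.92 in red seeds, against 13.27, 13.46 and 12.92 in dark seeds, and fell by 1.52 (SE 0.35, adjusted p = 0.011). LEA18 fell by 1.0 (SE 0.28), LEA4-5 by 0.98 (SE 0.30) and the dehydrin LTI30 by 0.88 (SE 0.25). The dehydrin COR47 went the other way, rising by 1.06 (SE 0.30, adjusted p = 0.026), and DI21 rose by 0.36 (SE 0.10). Few of these calls held in other fits. With no block 0 rose and 2 fell, without dark 1 the number that fell was 0, and without dark 2 the number that rose was 0. Calls over all probe sets also dropped without these arrays, from 6009 to 3496 and 3519. The oil body gene OLEO3 fell by 0.68 (SE 0.21, adjusted p = 0.038, 0.058 with no block and up to 0.15 without dark 1, dark 2, any red array or pil5 dark 2). The storage protein gene PAP85 read 12.53, 12.75 and 12.53 in red seeds, against 13.72, 13.71 and 13.11 in dark seeds, a change of -0.91 (SE 0.30) that missed the threshold (adjusted p = 0.051). Of the cold and dehydration genes, RD2 fell by 0.85 (SE 0.08, adjusted p = 0.0003).

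Chromatin genes included one of the largest falls. The linker histone HIS1-3, a variant that drought and ABA induce in vegetative tissue, read 6.54, 7.29 and 6.63 in red seeds, against 9.82, 10.40 and 9.13 in dark seeds. The change was -2.96 (SE 0.34, adjusted p = 0.00054), 7.78-fold lower after red. Of 17 histone and chromatin genes 5 fell and 2 rose, with a median of -0.10. The remodelling gene CHR42 fell by 1.21 (SE 0.17). Histone H2B genes did not move together: HTB2 fell by 1.02 (SE 0.13), HTB11 by 0.46 (SE 0.09) and HTB4 by 0.34 (SE 0.09), while HTB1 rose by 0.54 (SE 0.08, adjusted p = 0.0016). Probe sets of near-identical histone genes may share signal, so the values of single H2B genes are uncertain. The call of HTB4 ended without dark 2 or any red array (adjusted p up to 0.066).

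Genes that break down reserves did not move as one. The highest rise of a named gene was that of ASPGB1 (AT3G16150), an asparaginase that frees nitrogen from asparagine. It read 11.30, 11.20 and 10.35 in red seeds, against 8.05, 7.36 and 7.93 in dark seeds, and rose by 3.17 (SE 0.37, adjusted p = 0.00056), a 9.0-fold change. MGL, a methionine gamma-lyase, fell by 1.85 (SE 0.22, adjusted p = 0.00056), and MCCA, a carboxylase of leucine breakdown, fell by 1.09 (SE 0.27), a call that ended without dark 1, dark 2, red 1 or red 3 (adjusted p up to 0.069). The second asparaginase, ASPGA1, had -0.26 (SE 0.10, adjusted p = 0.081).

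Of 47 proteases and peptidases 11 rose and 3 fell, with a median of 0.05, and 4 rose and 1 fell with no block. Only 23 of them lay above the median level. Serine carboxypeptidase-like proteins made up most of the rises in this list: 8 of 29 genes with that symbol rose and 1 fell. Genes known by locus only could not be matched by symbol, so proteases among them may be missing from the list. Highest were scpl48 (2.72, SE 0.64), scpl44 (2.68, SE 0.64) and scpl25 (2.01, SE 0.33, adjusted p = 0.0023). scpl25 read 11.31, 10.96 and 11.35 in red seeds, against 9.52, 8.64 and 9.44 in dark seeds, so its groups were well apart. CP1, a cysteine proteinase, read 13.10, 12.95 and 12.73 in red seeds, against 10.45, 10.20 and 10.92 in dark seeds, and rose by 2.40 (SE 0.54, adjusted p = 0.0096). The subtilase SBT1.3 rose by 1.78 (SE 0.42). Chosen after their values were seen, scpl50 rose by 1.27 (SE 0.12, adjusted p = 0.00029), and DELTA-VPE, a vacuolar processing enzyme of the seed coat, rose by 1.29 (SE 0.30). Several of these calls ended when 1 array was left out. CP1 lost its call without dark 1 or dark 2 (adjusted p up to 0.057), and scpl48, scpl44, scpl20 (1.73, SE 0.41), SBT1.3 and DELTA-VPE lost theirs without dark 1, dark 2 or red 3 (up to 0.075). Over all probe sets the calls then also dropped from 6009, to 3496 without dark 1, 3519 without dark 2 and 4132 without red 3. With no block the adjusted p was 0.21 for scpl48, 0.40 for scpl20, 0.10 for SBT1.3 and 0.52 for DELTA-VPE.

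Oil and starch genes gave small or mixed changes. SDP1, the main lipase of seed oil, rose by 0.43 (SE 0.07, adjusted p = 0.0026, and 0.20 with no block). AIM1, an enzyme of fatty acid beta-oxidation, fell by 0.38 (SE 0.10), a call that ended with no block (adjusted p = 0.17) and without dark 1, red 2 or red 3 (up to 0.091). ICL, the isocitrate lyase of the glyoxylate cycle, stood near the top of the scale in both groups (14.34, 14.41 and 14.36 in red seeds, against 14.44, 14.44 and 14.41 in dark seeds) and had -0.06 (SE 0.07, adjusted p = 0.59). Of 7 starch and sugar genes, APL3, a large subunit of ADP-glucose pyrophosphorylase, read 7.20, 6.96 and 6.72 in red seeds, against 4.57, 4.69 and 5.12 in dark seeds. It rose by 2.17 (SE 0.48, adjusted p = 0.0091), with adjusted p up to 0.056 without dark 1 or dark 2. DPE1, a plastid enzyme that recycles short glucans when starch is degraded, fell by 1.86 (SE 0.19, adjusted p = 0.0003). The alpha-amylase AMY1 had 0.06 (SE 0.12) at a mean below 5. For fatty acid synthesis, the thioesterase FATB rose by 0.44 (SE 0.09) and FaTA fell by 0.47 (SE 0.11). Of 3 glycolysis genes 0 were called in limma, with 0 at an unadjusted p under 0.05 (33.7% over all genes with a locus).

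**Figure D3:**
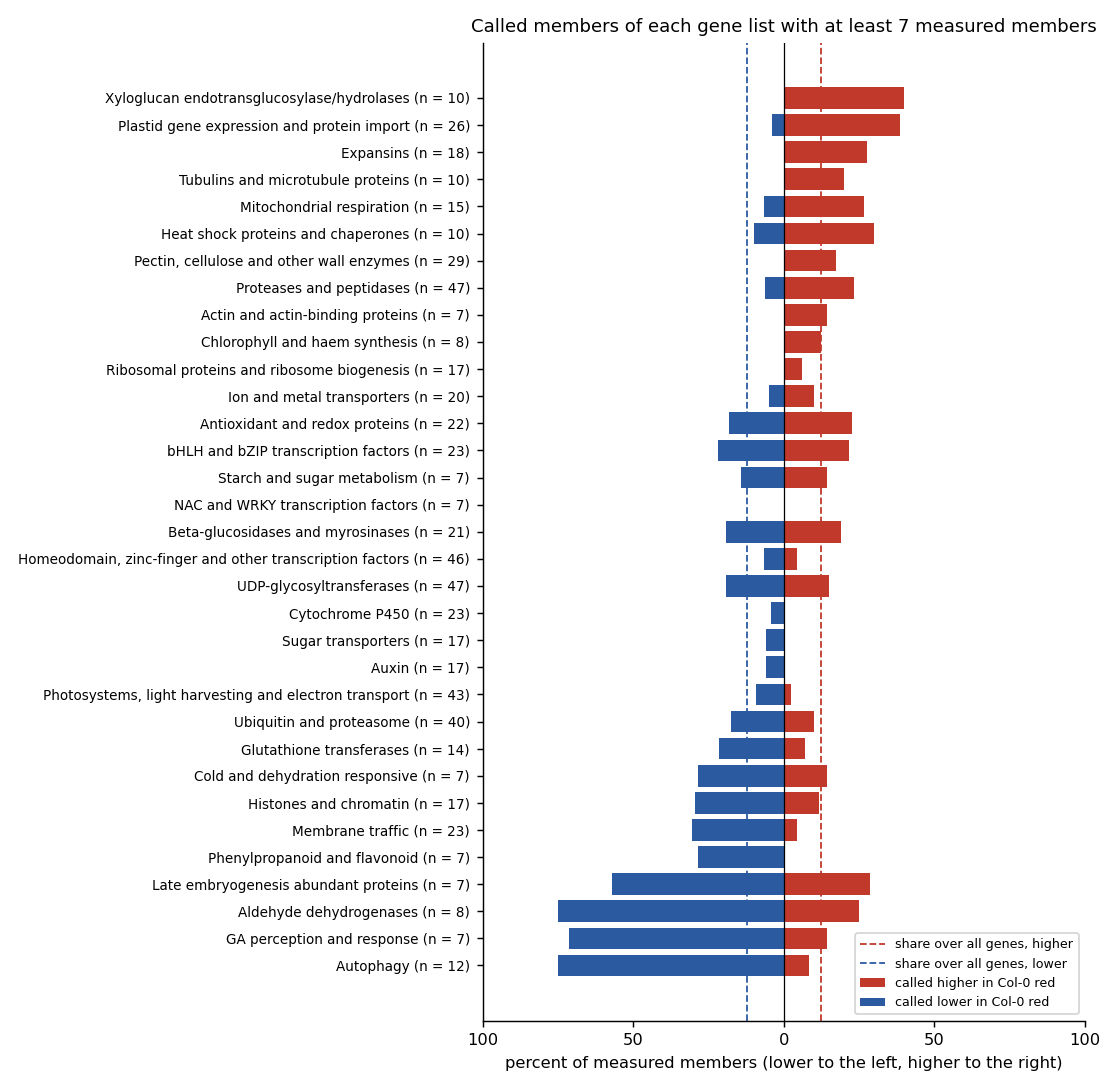
Percent of measured members called lower (left) and called higher (right) in Col-0 red, for each gene list with at least 7 measured members, with dashed lines at the shares over all genes (12.3% lower and 12.2% higher). Autophagy, GA perception and response, and aldehyde dehydrogenase genes extend furthest to the left, and xyloglucan endotransglucosylase/hydrolase and plastid expression genes furthest to the right.

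Wall-loosening genes moved in one direction where they passed. Of 18 expansins, proteins that loosen the wall without cutting it, 5 rose and 0 fell, with a median of 0.13 and 7 members above the median level. EXPA8 read 12.45, 12.38 and 11.97 in red seeds, against 10.62, 10.20 and 9.45 in dark seeds, and rose by 2.18 (SE 0.24, adjusted p = 0.00046). EXPA15 rose by 1.53 (SE 0.32, adjusted p = 0.0066) and EXPA4 by 1.45 (SE 0.24, adjusted p = 0.0024, and 0.16 with no block). EXPA20 rose by 0.56 (SE 0.13) and EXLA2 by 0.33 (SE 0.09), calls that ended with no block (adjusted p = 0.21 and 0.056) and without dark 1, dark 2 or red 3, among others (up to 0.11).

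Of 10 xyloglucan endotransglucosylase/hydrolases, which cut and rejoin the xyloglucan that ties cellulose fibres together, 4 rose and 0 fell. XTH16 read 9.92, 9.4 and 10.43 in red seeds, against 7.69, 7.18 and 8.61 in dark seeds, and rose by 2.09 (SE 0.40, adjusted p = 0.0043). XTH33 rose by 1.94 (SE 0.15, adjusted p = 9.8e-05), XTH19 by 2.02 (SE 0.53) and XTH18 by 0.72 (SE 0.17). XTH19 lost its call with no block (adjusted p = 0.23) and without dark 1, dark 2, red 2 or red 3 (up to 0.099), and XTH18 without dark 1, red 2 or red 3 (up to 0.069). The remaining wall enzymes gave 5 rises and 0 falls among 29, with a median of -0.01 and 9 members above the median level. CSLC04, a glucan synthase that makes the backbone of xyloglucan, read 9.48, 9.49 and 9.02 in red seeds, against 7.49, 7.23 and 7.06 in dark seeds, and rose by 2.07 (SE 0.34, adjusted p = 0.0022). Its relatives CSLC6 (0.70, SE 0.13, adjusted p = 0.16 with no block) and CSLC12 (0.43, SE 0.10, up to 0.071 without dark 1, red 1 or red 3) rose as well. Of the GH9 endoglucanase genes, GH9B18 rose by 0.71 (SE 0.10) and GH9C2 by 0.99 (SE 0.17, adjusted p = 0.42 with no block). The other measured GH9 genes were not called.

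Of the measured receptor kinases, THE1, which senses wall damage during elongation, read 9.55, 9.47 and 9.71 in red seeds, against 7.76, 7.55 and 8.24 in dark seeds, and rose by 1.73 (SE 0.32, adjusted p = 0.0042). Its relative FER had 0.20 (SE 0.07, adjusted p = 0.068). Chosen after their values were seen, 3 of 11 genes of the RALF peptide family, secreted peptides that raise the pH at the wall, rose and 0 fell: RALFL34 (1.41, SE 0.28), RALFL33 (1.26, SE 0.22) and RALFL22 (0.98, SE 0.16), the other 8 not being called and the family's median being -0.01. Also chosen afterwards, SKU5, a wall protein of directed root growth, rose by 1.46 (SE 0.19; adjusted p = 0.078 with no block). Of the TBL family, which acetylates wall polysaccharides, 5 of 22 genes rose and 1 fell.

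Of 10 tubulin and microtubule genes 2 rose, of 7 actin and actin-binding genes 1 and of 6 cell cycle and DNA replication genes 2, with 0 falls in each and 0 calls with no block in the first and the last. The tubulin gene TUB5 read 8.97, 8.24 and 7.39 in red seeds, against 7.20, 6.29 and 4.91 in dark seeds. Number 3 was lowest in both groups, so the groups lay close, at 7.39 and 7.20, while within each number red was clearly higher, and TUB5 rose by 2.07 (SE 0.14, adjusted p = 5.1e-05, and 0.10 with no block). TUB1 rose by 0.96 (SE 0.18; adjusted p = 0.060 with no block). The actin gene ACT11 rose by 1.5 (SE 0.22, adjusted p = 0.0015). PRL, a subunit of the MCM helicase that opens DNA for replication, rose by 1.08 (SE 0.15; adjusted p = 0.13 with no block). SIM, an inhibitor of the cell cycle, rose by 0.37 (SE 0.12, adjusted p = 0.049), close to the threshold, and lost its call with no block (adjusted p = 0.38) and without any 1 of 9 arrays (up to 0.21).

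**Figure D4:**
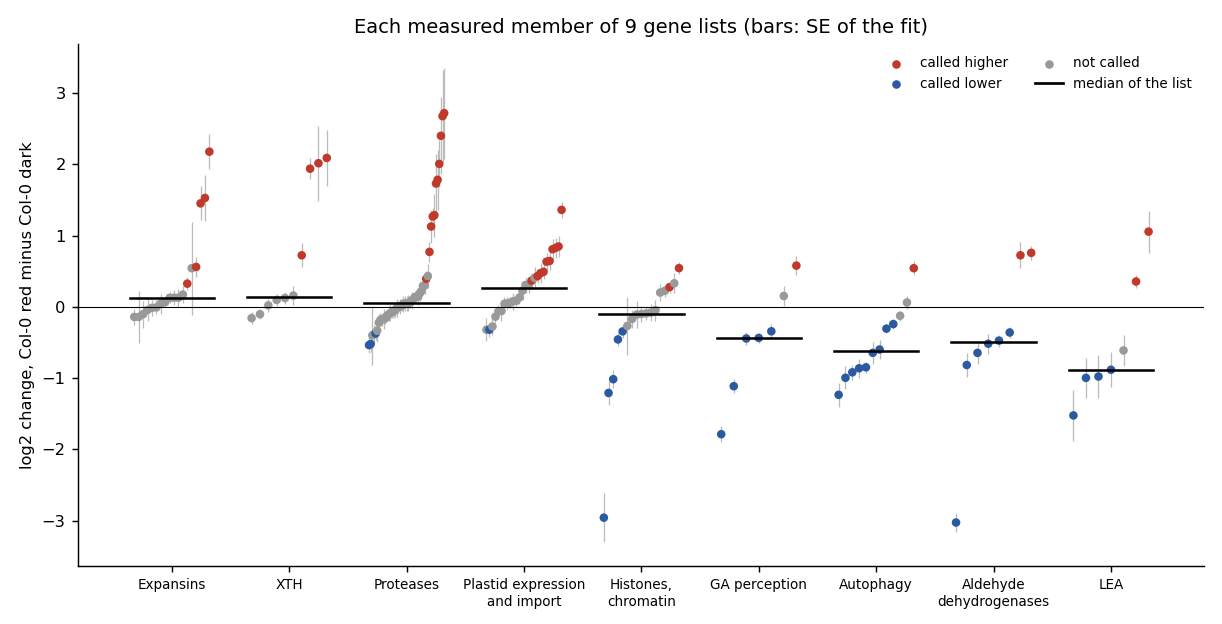
Log2 change of each measured member of 9 gene lists (points, with the SE of the fit as bars), with a black line at the median of each list. The called ATG8 genes and GID1A lie below 0, and the called expansin and XTH genes above it, while most expansins lie close to 0.

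Genes for plastid gene expression rose more often than they fell. Of 26 members, mostly proteins that edit plastid RNA or help plastid proteins fold, 10 rose and 1 fell, with a median of 0.27, and 8 rose and 0 fell with no block. Of these, 18 lay above the median level, where 21.4% of all genes rose. The chaperonin gene Cpn60beta2 read 11.71, 11.57 and 11.77 in red seeds, against 10.27, 9.97 and 10.72 in dark seeds, and rose by 1.36 (SE 0.11, adjusted p = 0.00012). Cpn60beta4 rose by 0.81 (SE 0.15). CRR28 (0.85, SE 0.15), OTP81 (0.64, SE 0.13), LPA66 (0.63, SE 0.12) and CRR22 (0.49, SE 0.11, named after its value was seen) encode pentatricopeptide repeat proteins that act on plastid transcripts. CRR41, which helps assemble the plastid NDH complex, rose by 0.83 (SE 0.14). The lowest count of rises when 1 array was left out was 7, without red 2.

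Calls among photosynthesis genes were all in the nuclear ones. Of 43 photosystem, light-harvesting and electron transport genes 30 are not encoded in the nucleus, and of the 13 nuclear ones 4 fell and 1 rose. PSBY, a small subunit of photosystem II, read 6.77, 6.53 and 6.87 in red seeds, against 5.51, 5.28 and 5.93 in dark seeds, and rose by 1.15 (SE 0.13, adjusted p = 0.00056). LHCB4.3, a minor antenna protein, fell by 0.61 (SE 0.09), PSB27 by 0.62 (SE 0.10) and NdhS by 1.34 (SE 0.33; adjusted p up to 0.081 without dark 1, dark 2 or red 3). RCA, the activase of Rubisco, fell by 0.46 (SE 0.09, adjusted p = 0.0061). Of 69 plastid-encoded genes limma called 0, with 3 at an unadjusted p under 0.05 (33.7% over all genes with a locus). Whether the labelling reads plastid RNA as well as nuclear RNA was not tested. The lack of calls therefore does not show that plastid transcripts stayed unchanged. Of 8 chlorophyll and haem genes, CHLI2, a subunit of magnesium chelatase, rose by 0.85 (SE 0.20, adjusted p = 0.012), which ended with no block (0.069) and without dark 1, dark 2 or red 1 (up to 0.064).

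Of 15 genes listed under mitochondrial respiration 4 rose and 1 fell, the same counts as with no block. The 1 that fell was ICDH, an isocitrate dehydrogenase gene rather than one of the respiratory chain (-0.34, SE 0.10, adjusted p = 0.028). Its call ended without dark 1, dark 2, red 1 or red 3 (adjusted p up to 0.13). NDB3, an alternative NAD(P)H dehydrogenase on the outer face of the inner membrane, read 9.89, 9.46 and 9.45 in red seeds, against 7.51, 6.98 and 7.82 in dark seeds, and rose by 2.17 (SE 0.41, adjusted p = 0.0042). Both measured genes of the iron-sulphur subunit of succinate dehydrogenase rose, SDH2-2 by 0.80 (SE 0.16) and SDH2-1 by 0.80 (SE 0.19), and cytochrome c gene CYTC-1 rose by 0.46 (SE 0.11). A second, dim probe set of SDH2-1 had -0.03 (adjusted p = 0.829). SDH2-1 lost its call without dark 1, dark 2 or red 2 (adjusted p up to 0.066) and CYTC-1 without dark 1, dark 2 or red 3 (up to 0.07), and the count of rises without dark 1 was 2.

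Most measured autophagy genes fell. Autophagy carries cell contents to the vacuole, and ATG8 proteins coat its vesicles. Of 12 members, all above the median level, 9 fell and 1 rose, with a median of -0.62, and 4 fell and 1 rose with no block. Of 9 ATG8 genes 8 fell, 4 of them also with no block. ATG8F read 8.98, 9.21 and 9.16 in red seeds, against 10.41, 10.41 and 10.24 in dark seeds, and fell by 1.23 (SE 0.16, adjusted p = 0.00093). ATG8C fell by 0.92 (SE 0.11), APG8H by 0.86 (SE 0.14) and ATG8D by 0.85 (SE 0.08). ATG8H fell by 1.0 (SE 0.16; adjusted p = 0.45 with no block) and ATG8E by 0.65 (SE 0.15), which ended with no block (0.50) and without dark 1 or dark 2 (up to 0.067). ATG8G, the one ATG8 gene that was not called, had 0.06. The lowest count of falls without 1 array was 7, without dark 1. The list also held the TOR kinase partners RAPTOR1, which fell by 0.24, and RAPTOR2, which rose by 0.54 (SE 0.10), both named after their values were seen.

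Of 40 ubiquitin and proteasome genes 7 fell and 4 rose. Ubiquitin-specific proteases (UBP), which remove ubiquitin, gave 4 rises and 1 fall among 12. All 12 lay above the median level, where 21.4% of all genes rose and 22.7% fell. UBP21 rose by 0.60 (SE 0.10) and UBP19 by 0.59 (SE 0.12). The F-box gene SKP2A, which targets cell cycle factors, read 7.36, 7.80 and 7.82 in red seeds, against 9.32, 9.65 and 9.22 in dark seeds, and fell by 1.74 (SE 0.30, adjusted p = 0.0026).

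Membrane traffic genes gave 7 falls and 1 rise among 23, with a median of -0.23, and 3 falls and 1 rise with no block. KEU, a protein of vesicle fusion in cytokinesis, fell by 0.48 (SE 0.09, adjusted p = 0.0033) and AtSec20 by 0.61 (SE 0.12). Subunits of the ESCRT machinery, which sorts membrane proteins to the vacuole, went both ways: VPS22 fell by 0.45 (SE 0.10; adjusted p = 0.16 with no block), VPS20.1 by 0.62 (SE 0.15; 0.12 with no block and up to 0.066 without dark 1, dark 2 or red 3), and VPS24.1 rose by 0.55 (SE 0.10). AKINBETA1, a subunit of the energy-sensing kinase SnRK1, fell by 0.90 (SE 0.16, adjusted p = 0.0037).

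Every measured aldehyde dehydrogenase changed: of 8 genes 6 fell and 2 rose, with a median of -0.50, and 3 fell and 1 rose with no block. ALDH2C4, an enzyme of ferulic and sinapic acid synthesis, read 9.07, 9.02 and 9.07 in red seeds, against 12.07, 11.97 and 12.20 in dark seeds. Its change of -3.03 (SE 0.14, adjusted p = 7.4e-06) was 8.16-fold. ALDH7B4, a stress-induced member, fell by 0.82 (SE 0.16), and ALDH3F1 rose by 0.76 (SE 0.09, adjusted p = 0.00066). Without dark 1 the falls numbered 4 and the rises 1. HCT, an enzyme of lignin precursor synthesis, read 7.28, 7.21 and 7.73 in red seeds, against 8.71, 8.63 and 8.61 in dark seeds, and fell by 1.24 (SE 0.17, adjusted p = 0.0011). The flavonoid genes DFR (0.05) and BAN (0.03) stayed near the bottom of the scale.

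Redox genes rose and fell. MSRB9, a reductase that repairs oxidised methionine, read 6.96, 6.77 and 7.35 in red seeds, against 5.25, 5.01 and 5.12 in dark seeds, and rose by 1.90 (SE 0.13, adjusted p = 5.8e-05). NTRC, a plastid thioredoxin reductase, rose by 0.92 (SE 0.16), and VTC4, an enzyme of ascorbate synthesis, rose by 1.28 (SE 0.24; adjusted p = 0.45 with no block). The glutaredoxin gene GRXC1 fell by 0.65 (SE 0.16; up to 0.091 without dark 1, dark 2 or red 3). Of 14 glutathione transferases, GSTU27 rose by 1.68 (SE 0.13, adjusted p = 9.2e-05) and GSTU16 fell by 1.26 (SE 0.19, adjusted p = 0.0015).

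The listed bHLH and bZIP transcription factors gave 5 rises and 5 falls among 23. ATMYC1, a bHLH gene outside this list that was named after its value was seen, rose by 1.76 (SE 0.31, adjusted p = 0.0032, and 0.10 with no block). bZIP44, known for switching on a mannanase gene in germinating seeds, read 10.05, 10.44 and 10.01 in red seeds, against 8.86, 8.87 and 8.70 in dark seeds, and rose by 1.36 (SE 0.23, adjusted p = 0.0025). BZIP53, a regulator of seed maturation genes that was named after its value was seen, fell by 0.66 (SE 0.14, adjusted p = 0.0073). ALC, the closest relative of SPT, rose by 1.04 (SE 0.12, adjusted p = 0.00056). The iron-response factors bHLH115 and bHLH34 rose by 1.02 (SE 0.13) and 0.87 (SE 0.16). BIM1, a partner of brassinosteroid factors, fell by 0.96 (SE 0.10, adjusted p = 0.0003). Of the zinc-finger and MYB genes of trichome patterning, GIS rose by 1.08 (SE 0.18) and TRY by 0.79 (SE 0.14). NAC and WRKY factors, of which 7 were measured, gave 0 calls in limma, with 2 at an unadjusted p under 0.05. The AP2/ERF and DREB factors gave 0 calls among 4, with 0 at an unadjusted p under 0.05. For both groups the share to compare, over all genes with a locus, was 33.7%. CIL, a gene with a CCT domain that was chosen after its values were seen, read 9.24, 9.19 and 9.21 in red seeds, against 7.36, 7.26 and 7.5 in dark seeds, and rose by 1.84 (SE 0.10, adjusted p = 2e-05).

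Glucosinolates are the sulphur-rich defence compounds of this plant family, for which no list was made. UGT74B1, a glycosyltransferase of their synthesis, rose by 1.0 (SE 0.19, adjusted p = 0.005, and 0.10 with no block). PYK10, an abundant myrosinase-type glucosidase, read 10.55, 9.62 and 8.85 in red seeds, against 8.69, 7.60 and 7.14 in dark seeds, and rose by 1.86 (SE 0.37, adjusted p = 0.0056, and 0.23 with no block). Chosen after their values were seen, the glucosinolate transporters GTR1 and GTR2 rose by 1.25 (SE 0.27) and 1.31 (SE 0.32), each with adjusted p = 0.21 with no block, GTR2 also losing its call without dark 1, dark 2 or red 3 (up to 0.08). The bHLH factors MYC4 and MYC3, which act in jasmonate response and glucosinolate synthesis, moved apart: MYC4 rose by 1.13 (SE 0.24; 0.18 with no block) and MYC3 fell by 0.87 (SE 0.17).

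Of 47 UDP-glycosyltransferases 9 fell and 7 rose. UGT74D1, which acts on auxin, rose by 1.42 (SE 0.24, adjusted p = 0.0025). UGT84A3, which acts on phenolic acids, fell by 1.25 (SE 0.19; adjusted p = 0.36 with no block), and UGT76C1, which acts on cytokinin, fell by 1.22 (SE 0.25). Among 21 beta-glucosidases and myrosinases 4 rose and 4 fell, including BGLU44, which fell by 1.83 (SE 0.18, adjusted p = 0.00028), and BGLU28, which rose by 1.52 (SE 0.19, adjusted p = 0.00074). Cytochrome P450 genes gave 1 fall among 23. Of 17 sugar transporters 1 fell, SWEET6 (-1.35, SE 0.37; adjusted p = 0.18 with no block and up to 0.11 without dark 1, dark 2 or any red array). SAG29, a SWEET transporter under its older symbol that was named after its value was seen, rose by 1.76 (SE 0.29, adjusted p = 0.0023).

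Most of the leading genes are known here by locus only, as are 11798 of all 13355 genes, and are given with no role. Of the 30 named for the largest changes, 23 were such genes, 12 higher and 11 lower. The highest was AT5G45650, which read 12.34, 11.96 and 11.46 in red seeds, against 8.44, 7.59 and 7.85 in dark seeds, and rose by 3.96 (SE 0.43, adjusted p = 0.00041), 15.5-fold. AT5G45670 rose by 3.72 (SE 0.26), AT5G59130 by 3.46 (SE 0.41), AT3G15720 by 3.40 (SE 0.71) and AT1G02810 by 3.01 (SE 0.32). That the red and dark arrays of these genes did not overlap was a condition of choosing them. AT4G26790, AT2G32560, AT2G45180, AT4G16230, AT3G61820, AT4G20230 and AT5G13400 rose by 2.51 to 2.74.

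Downward, AT1G16850 read 7.77, 8.25 and 9.35 in red seeds, against 11.50, 11.54 and 11.67 in dark seeds, and fell by 3.11 (SE 0.24, adjusted p = 9.8e-05). AT1G17830 fell by 3.08 (SE 0.34), AT1G25275 fell by 2.83 (SE 0.35) and AT4G28240 by 2.66 (SE 0.27). AT5G66590 read 8.62, 8.59 and 8.79 in red seeds, against 10.85, 10.99 and 11.21 in dark seeds, with a change of -2.35 (SE 0.11, adjusted p = 7.9e-06). AT3G25260, annotated as NRT1/PTR family member 4.1, read 6.79, 7.06 and 5.79 in red seeds, against 9.89, 9.81 and 7.69 in dark seeds, and fell by 2.58 (SE 0.40, adjusted p = 0.0017). AT2G28400, AT4G36700, AT5G45310, AT1G15740 and AT2G19320 fell by 2.41 to 2.62. Of the 30 genes 28 kept their calls without any 1 array, scpl44 and scpl48 being the exceptions, and 28 passed with no block, where scpl48 (0.21) and AT4G20230 (0.051) did not.

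Over all genes, 2832 of 11798 known by locus only were called (24.0%), and 447 of 1557 with a symbol (28.7%). Of those called at least 2-fold, 188 locus-only genes rose and 265 fell. Of 5909 pairs of neighbouring genes in the RefSeq order with both measured, 14 had both genes called at least 2-fold in the same direction and 4 in opposite directions. DPE1 (-1.86) stood beside AT5G64850 (-1.11), PSBY (1.15) beside AT1G67750 (1.04) and UGT76C1 (-1.22) beside AT5G05880 (-1.42), while GID1C (-1.11) stood beside AT5G27330 (1.0) and TBL39 (1.14) beside AT2G42560 (-2.21).

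Probe sets not tied to 1 gene numbered 9233, of which 1401 were higher and 1300 lower (29.3% called). The lowest of all probe sets was among them and read 6.08, 6.70 and 5.99 in red seeds, against 11.42, 11.75 and 10.93 in dark seeds, and fell by 5.11 (SE 0.40, adjusted p = 0.000101). The highest of them read 9.05, 8.53 and 8.51 in red seeds, against 4.86, 4.64 and 5.01 in dark seeds, and rose by 3.86 (SE 0.12, adjusted p = 7.94e-07). Among genes with a biotype in RefSeq, 26.5% of protein-coding genes were called, and 1.08% of 923 pseudogenes, whose median level of 3.90 lay near the bottom of the scale. By chromosome the share ran from 20.6% on chromosome 2 to 26.2% on chromosome 5, and chromosome 2 also had the lowest median level of the 5, 5.04.

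The 3 replicate numbers gave mostly the same directions with different sizes. Red minus dark had a standard deviation across probe sets of 0.531 in number 1, 0.519 in number 2 and 0.433 in number 3, and 1476, 1400 and 840 probe sets differed at least 2-fold. Changes correlated (across probe sets, so with no p) at r = 0.924 between numbers 1 and 2, 0.823 between 1 and 3 and 0.829 between 2 and 3. Of 744 probe sets at least 2-fold higher in number 1, 744 were higher in number 2 (median 1.31) and 741 in number 3 (median 0.989). Of 732 at least 2-fold lower in number 1, all 732 were lower in number 2 (median -1.29) and in number 3 (median -0.947). Number 3 had the smallest change of the 3 in 24 of the 30 leading genes.

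**Figure D5:**
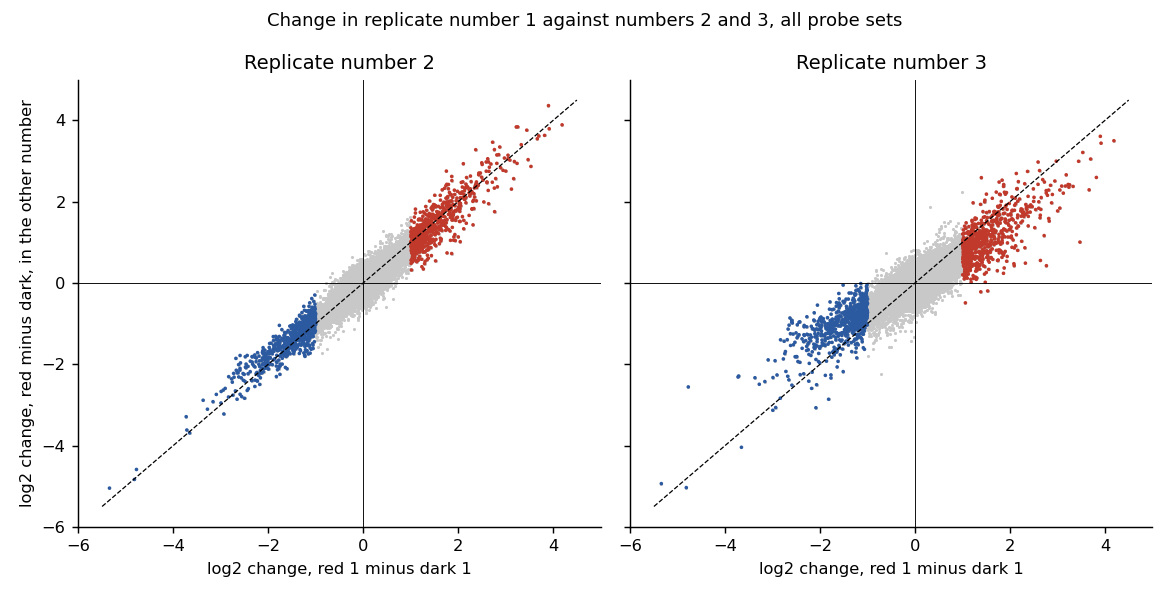
Log2 change (red minus dark) of each probe set in replicate number 1 (horizontal) against number 2 (left panel, vertical) and number 3 (right panel, vertical), with probe sets at least 2-fold higher or lower in number 1 in red and blue and a dashed line of equal change. Points follow the line in number 2 (r = 0.924) and lie flatter in number 3 (r = 0.823).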

How the data were processed

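Each sample was hybridised to 1 Affymetrix array with biotinylated cRNA, per the labels' protocols. The values are log2 signals as deposited by the authors for 22810 probe sets, of which 64 control probe sets were set aside. MAS5 5.0 and RMA are both listed in the submitters' processing notes, and which of them made the deposited values is not given in the sources used here. The 12 arrays had medians from 6.081 to 6.278. Precision is limited by their number.

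A linear model over all 12 arrays (limma 3.58.1 under R 4.3.3) had a mean for each of the 4 groups and the replicate number as an additive block, eBayes without trend, two-sided, Benjamini-Hochberg adjustment over 22746 probe sets and a threshold of 0.05. SE is the standard error of the fit with n = 3 per group. The number was used because the comparison was defined by pairs: deviations from the group means correlated at 0.548 to 0.709 between Col-0 red and dark arrays of the same number and at -0.674 to 0.407 between different numbers. What a replicate number marks is not given in the labels. On simulated data for this comparison over 22746 probe sets, the fit recovered 87% of 2-fold and 98% of 4-fold changes, and 13 of 198 calls were false. The simulation changed 100 probe sets by each amount, far fewer than were called here. It drew independent noise and an additive replicate effect, as the model assumes, so these rates may not hold for the real arrays.

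The supplied annotation tied 13513 probe sets to 1 gene, 503 to several and 8730 to none, and 13436 were matched to RefSeq (TAIR10.1) for names. A gene was represented by its probe set with the highest mean. The 62 gene lists, of which 58 had a measured member, and their members were chosen with earlier results of these data known, and members whose names showed another family were removed by name. Members found by a pattern of symbols could come only from the 1557 genes with a symbol. Named genes were the 15 highest and 15 lowest changes among called probe sets of 1 gene whose groups did not overlap, then in every list the called members with the largest changes, up to 6, and all members of lists with 8 or fewer. No set test was run. Results for 1 gene family are not reported here. Promoter motifs were not analysed here, and no positions are given because the sources do not state a build for the array. Alternatives were the fit with no block, the 6 Col-0 arrays alone, quantile normalization, median centring, leaving out dim probe sets, trend and robust moderation, array weights, and leaving out each array. Plots used matplotlib 3.10.9 in Python 3.11.15.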

Additional observations from a re-analysis of the deposited data

How the results depend on the processing

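With no replicate block 3443 probe sets were called (1776 higher and 1667 lower) in place of 6009, and 123 of the list members in place of 198. With array weights 9024 probe sets and 294 list members were called. Leaving out 1 array gave between 3496 (without Col-0 dark 1) and 7785 (without pil5 red 3) calls, with 3519 without Col-0 dark 2, and between 826 and 1537 calls of at least 2-fold, where the whole set gave 1101. For list members it gave between 130 (without Col-0 dark 2) and 259. The 6 Col-0 arrays alone gave 7575 calls with the block and 4086 without it. Of 252 named genes 177 were called, 125 of them also with no block, 121 without any 1 array and 98 under every alternative, and none of the 177 changed direction under those of the 21 alternatives in which it was tested (both filters on dim signal removed some of them). Of the named genes with a second probe set, AGL26, AT2G32560 and SDH2-1, the dimmer one was not called (adjusted p = 0.945, 0.157 and 0.829), at mean levels of 3.56, 3.38 and 4.06. Promoter motif shares were not run. Genes at or below the median level were called in 5.06% of cases, against 44.0% above it, and the cause was not tested.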

Other observations

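Some smaller gene groups were not described above. Of 10 heat shock and chaperone genes 3 rose and 1 fell, and beside the 2 plastid chaperonins the third rise was Hsp70-2, which read 9.29, 9.23 and 10.21 in red seeds, against 7.85, 7.90 and 9.16 in dark seeds. Hsp70-2 rose by 1.27 (SE 0.30, adjusted p = 0.011), a call that ended without dark 1, dark 2 or red 3 (adjusted p up to 0.066). The glutamate receptor-like channel gene GLR3.5 rose by 1.14 (SE 0.19, adjusted p = 0.0025, and 0.12 with no block). The MAP kinase gene ATMPK8 read 7.42, 7.47 and 8.20 in red seeds, against 6.66, 6.54 and 7.35 in dark seeds, and rose by 0.85 (SE 0.08, adjusted p = 0.00026, and 0.077 with no block). The translation initiation factor gene EIF4A-2 rose by 0.52 (SE 0.10, adjusted p = 0.0052). Of 3 vacuolar proton pump genes limma called 0, with 2 at an unadjusted p under 0.05 (33.7% over all genes with a locus).

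Symbol families counted after the data were seen gave 4 rises and 0 falls among 15 TRM genes, and 2 rises and 0 falls each among 15 IQD genes (calmodulin-binding proteins), 6 LSM genes (RNA-binding proteins) and 6 NRPB genes (subunits of RNA polymerase II). Over all genes 12.2% rose and 12.3% fell. All 6 LSM and all 6 NRPB genes lay above the median level, as did 8 of the IQD and 4 of the TRM genes. Above that level 21.4% of all genes rose.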
